A study of Mus musculus with 6 samples.

Results

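The desmosomal genes examined here were the 4 desmoglein genes *Dsg1a*, *Dsg2*, *Dsg3* and *Dsg4*, the 3 desmocollin genes *Dsc1*, *Dsc2* and *Dsc3*, and the plaque protein genes *Dsp*, *Pkp1* and *Jup*. They were chosen by name, through the Ensembl identifiers that GENCODE M21 gives for them, and all 10 were found among the 26579 genes of the count table and among the 15102 genes that passed the filter on low counts. The filter kept genes with at least 1 CPM (a count scaled to the total counts of its library) in at least 3 libraries. RNA came from dorsal neck skin of female mice at 33 days of age, 3 wild type and 3 YAP2-5SA-∆C littermates taken when the skin phenotype was first visible from outside. The transgenic mice express a mildly active mutant of the transcriptional coactivator YAP in basal keratinocytes. Each biopsy was whole skin, with epidermis, hair follicles, glands and dermis together, and for any gene below, fewer cells of a type and less RNA per cell cannot be told apart.

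Desmosomes are the button-like junctions that rivet keratinocytes to each other and anchor their keratin filaments. Desmogleins and desmocollins are cadherins that cross the membrane and bind their partners on the neighbouring cell. Inside the cell their tails bind plakoglobin (*Jup*) and plakophilins, and desmoplakin (*Dsp*) links this plaque to keratin. The cadherins are used in layers, with *Dsg1* and *Dsc1* typical of the upper epidermis, *Dsg3* and *Dsc3* of the lower layers, *Dsg2* and *Dsc2* of simple epithelia and parts of the follicle, and *Dsg4* of the hair shaft.

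Total counts were 11225705 to 19505036 per library, and the 10 genes together took 0.687% to 0.932% of them (79864 to 158642 counts). The fewest counts behind any value of these 10 genes were the 232 of *Dsc2* in YAP2-5SA-∆C replicate 2. Genes of the mitochondrial genome took 19.3% to 23.1% of the counts. In wild type replicate 3 a single unnamed gene took 5.27%, against 0.0634% to 0.288% in the other libraries. As a check of the labels, the mouse gene *Yap1* had a log2 fold change of 0.06 (FDR = 0.635, edgeR quasi-likelihood test), and whether the transgene contributes reads to it was not tested. The labels name the mice only as littermates and give no cage, day or batch. All p-values measure the spread between these 6 libraries.

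In the YAP2-5SA-∆C skin, 2 desmosomal cadherins, *Dsg4* and *Dsc2*, had group means of 34.0% and 30.7% of the wild type mean, while the other 8 genes had means of 90.7% to 118.3% of it. Neither *Dsg4* nor *Dsc2* passed the main test, and the 3 transgenic mice differed widely among themselves in both genes (57.4 ± 37.3 CPM and 37.7 ± 23.7 CPM, SD, n = 3). That test was the quasi-likelihood test of edgeR with genotype as the only term, run over all 15102 genes with Benjamini-Hochberg adjustment (FDR, threshold 0.05). It called 0 of the 10 genes, against 1.91% of all genes tested. At an unadjusted p below 0.05, 2 of the 10 were lower (*Dsg4* and *Dsc2*), against 13% of all genes. The likelihood-ratio test of edgeR called the same 2 genes lower, against 4.87% of all genes, whereas voom and DESeq2 each called 0 of the 10, against 1.65% of all genes with voom and 10.5% with DESeq2. Without overlap between the genotypes, 2 of the 10 were lower (18.2% of all genes) and 1, *Dsc3*, was higher (15.5% of all genes). The median log2 fold change was 0.16 over the 10 genes and -0.01 over all genes tested, with 7 of the 10 positive. Without YAP2-5SA-∆C replicate 2, the median over the 10 was 0.04 with 6 positive.

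**Figure D1:**
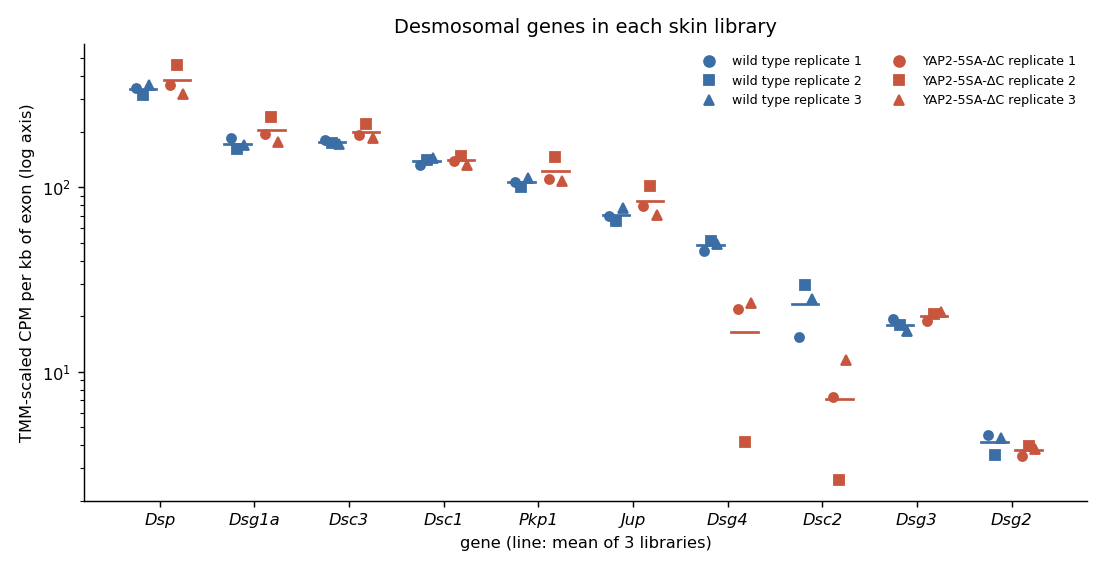
Level of each of the 10 genes in each library, as CPM with TMM library scaling per kb of exon on a log axis, with wild type in blue and YAP2-5SA-∆C in red, a marker shape for each replicate number and a line at the mean of 3 libraries. *Dsg4* and *Dsc2* are the genes whose red points all lie below the blue points, and the lowest red point of both is replicate 2.

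In wild type skin the 10 genes spanned a wide range. Levels were compared per kb of exon, counting all annotated exons of a gene, so the order depends on that length. For *Jup* it was 6436 bases, while its 2 protein-coding transcripts held 3219 different stretches of 75 bases. *Dsg1a* shares part of its sequence with other genes, as described below. On this scale, *Dsp* had the highest level at 339.6 ± 22.7 CPM per kb (SD, n = 3) and *Dsg2* the lowest at 4.15 ± 0.517 CPM per kb (SD, n = 3). Between them, in falling order of the wild type mean in CPM per kb, stood *Dsc3* (175.0), *Dsg1a* (171.6), *Dsc1* (138.3), *Pkp1* (106.5), *Jup* (70.9), *Dsg4* (48.5), *Dsc2* (23.3) and *Dsg3* (17.98). Neighbours whose libraries overlapped were *Dsc3* with *Dsg1a* and *Dsc2* with *Dsg3*, and every other neighbouring pair was separated in all 3 libraries. In YAP2-5SA-∆C skin *Dsg4* (16.5 CPM per kb) stood below *Dsg3* (20.1 CPM per kb), and *Dsg3*, *Dsg4*, *Dsc2* (7.15 CPM per kb) and *Dsg2* (3.76 CPM per kb) each overlapped the next in order. Summed over the 10 genes, the level was 1096 ± 35.7 CPM per kb in wild type and 1173 ± 153.7 CPM per kb in the transgenic skin (SD, n = 3 each, two-sided exact permutation test, p = 0.7, where 3 against 3 cannot go below 0.1). The difference in the summed level was smaller than the spread of the transgenic libraries.

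*Dsg4* encodes desmoglein 4, the desmoglein of the differentiating hair shaft, whose mutation causes fragile hair in mice and people. Its level was 156.7, 178.4 and 171.4 CPM in wild type replicates 1, 2 and 3, and 75.7, 14.4 and 82.0 CPM in YAP2-5SA-∆C replicates 1, 2 and 3. All transgenic libraries lay below all wild type libraries, and replicate 2 stood far below replicates 1 and 3, at 9.20% of the lowest wild type library. The log2 fold change was -1.56 (standard error 0.55, 95% interval -2.86 to -0.25), and the quasi-likelihood FDR from edgeR was 0.136. The FDR was 0.00619 in the likelihood-ratio test, 0.101 with voom and 0.149 with DESeq2. Without YAP2-5SA-∆C replicate 2, the log2 fold change was -1.08 and the gene passed the quasi-likelihood test (FDR = 0.00679).

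*Dsc2* encodes desmocollin 2, the desmocollin found most widely across epithelia. The study picked it from its results on these same libraries for quantitative RT-PCR, and reported significantly lower levels in YAP2-5SA-∆C skin. Because the gene was picked from these libraries and measured in the same cohort, its direction here is not independent evidence. Its level was 81.6, 156.4 and 130.4 CPM in the wild type libraries and 38.5, 13.7 and 61.0 CPM in the YAP2-5SA-∆C libraries. The genotypes did not overlap, but wild type replicate 1 came close to transgenic replicate 3, and transgenic replicate 2 was again the lowest, at 16.7% of the lowest wild type library. The log2 fold change was -1.70 (standard error 0.51, 95% interval -2.90 to -0.51), and the FDR from edgeR was 0.0955 by quasi-likelihood, 0.000826 in the likelihood-ratio test, 0.0794 with voom and 0.0659 with DESeq2. Without YAP2-5SA-∆C replicate 2, it was -1.29 (quasi-likelihood FDR = 0.0599).

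**Figure D2:**
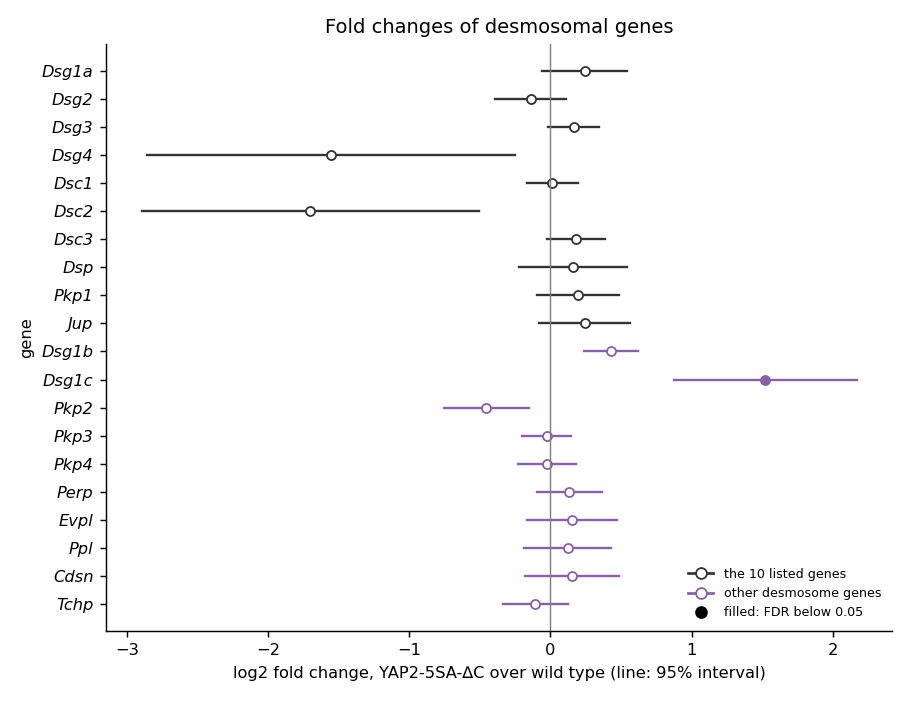
Log2 fold change of YAP2-5SA-∆C over wild type skin with its 95% interval for the 10 genes (black) and 10 other desmosome genes (purple), with filled points for a quasi-likelihood FDR below 0.05. *Dsg4* (-1.56) and *Dsc2* (-1.70) lie far to the left with wide intervals, and *Dsg1c* (1.52) is the 1 filled point.

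Genes of the hair shaft and inner root sheath were low in the same libraries. A list of 16 hair shaft and inner root sheath genes, of which 15 were measured (*Krt85* was not in the table), summed to 14350, 18490 and 17250 CPM in the wild type libraries and to 7552, 1532 and 9548 CPM in the YAP2-5SA-∆C libraries. The sum in YAP2-5SA-∆C replicate 2 was 10.7% of that in the lowest wild type library, and the transgenic libraries fell in the same order (replicate 2 lowest, then 1, then 3) as for *Dsg4* and *Dsc2*. All 15 genes were lower without overlap (18.2% of all genes), with a median log2 fold change of -1.39. None passed the quasi-likelihood test of edgeR (FDR 0.0619 to 0.225), against 1.91% of all genes. At an unadjusted p below 0.05 in that test, 14 were lower, against 13% of all genes. The likelihood-ratio test called 14 lower (4.87% of all genes), DESeq2 called 2 lower (4.18%) and voom called 0 (1.65%). *Krt71*, a keratin of the inner root sheath, had 3549, 4254 and 4181 CPM in wild type and 1982, 378.1 and 2281 CPM in YAP2-5SA-∆C skin. The 6 melanocyte genes, *Dct* and *Tyr* among them, summed to 491.4 to 557 CPM in wild type and 186 to 312.7 CPM in YAP2-5SA-∆C skin, again lowest in replicate 2. The part of hair follicle cells in the levels of *Dsg4* and *Dsc2* was not tested.

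**Figure D3:**
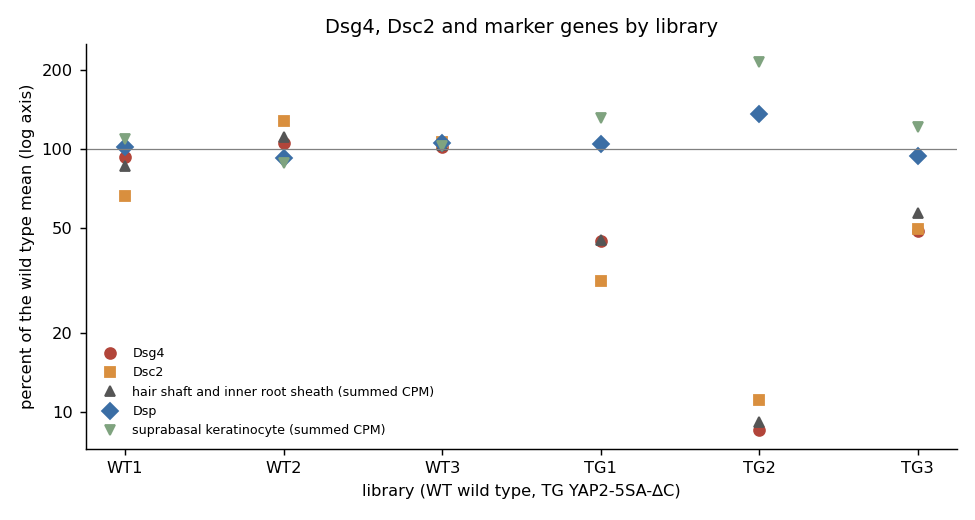
*Dsg4*, *Dsc2*, *Dsp* and the summed CPM of the hair shaft and inner root sheath list (15 genes) and the suprabasal keratinocyte list (7 genes), each as a percentage of its wild type mean on a log axis, by library. In YAP2-5SA-∆C replicate 2, *Dsg4* (8.54%), *Dsc2* (11.1%) and the hair list (9.18%) are near each other, while *Dsp* (135.6%) and the suprabasal list (213.0%) are at their highest.

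Genes were also ordered by the likeness of their profile across the 6 libraries. Likeness was measured as the root mean square difference of log2 CPM, each gene centred on its own mean, over 10119 candidate genes with a mean of at least 10 CPM. The 5 genes nearest to *Dsc2* were *Car6* (0.07 log2 units), *Chac1* (0.14), *Alox8* (0.17), *Psors1c2* (0.22) and *Slco5a1* (0.24). Among the other 9 desmosomal genes, *Dsg4* ranked 43rd (0.34 log2 units) and the remaining 8 ranked between 4646 (*Dsg2*) and 9082 (*Dsg1a*). The 5 genes nearest to *Dsg1a* were *Osbpl5*, *Dip2b*, *Ttc7*, *Fut2* and *Myof* (0.02 to 0.03 log2 units). *Dsg1a* had the highest log2 fold change of the 10 in the main fit, hardly above *Jup* (0.2426 and 0.2422). Without wild type replicate 3, *Jup* was higher (0.3145 against 0.2442). The likeness values are descriptions over 6 libraries that share the difference between genotypes.

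Among the desmogleins of the epidermis, *Dsg1a* encodes 1 of the 3 mouse forms of desmoglein 1, the adhesion molecule of the upper layers. Its level was 1045, 915.8 and 966 CPM in wild type and 1104, 1364 and 994.9 CPM in YAP2-5SA-∆C skin, with overlapping libraries and a log2 fold change of 0.24 (standard error 0.13, 95% interval -0.06 to 0.55, quasi-likelihood FDR = 0.274 in edgeR). *Dsg3*, the desmoglein of the basal layers, had 135, 124.8 and 116.5 CPM in wild type and 131, 143.6 and 147 CPM in YAP2-5SA-∆C skin. The libraries overlapped, and the log2 fold change was 0.16 (95% interval -0.02 to 0.34, quasi-likelihood FDR = 0.225 in edgeR). *Dsg2*, which is scarce in adult epidermis, had 29.4 to 37.3 CPM in wild type and 28.9 to 32.9 CPM in YAP2-5SA-∆C skin (log2 fold change -0.14, 95% interval -0.39 to 0.11, quasi-likelihood FDR = 0.435 in edgeR). An antisense gene, *Gm16090*, covers 330 exon bases of *Dsg2* (3.99%) and had at most 1 count in any library. When single libraries were dropped, the log2 fold change ran from 0.12 (without YAP2-5SA-∆C replicate 2) to 0.34 for *Dsg1a*, from 0.12 to 0.23 for *Dsg3* and from -0.24 (without wild type replicate 2) to -0.07 (without wild type replicate 1) for *Dsg2*. The strand setting of the counting is not given in the sources used here.

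The share of each desmoglein in the sum of the 4, per kb of exon, was compared between the genotypes. *Dsg4* made up 17.8%, 21.9% and 20.5% of the desmoglein level in the wild type libraries and 9.14%, 1.54% and 10.6% in the YAP2-5SA-∆C libraries. The mean difference was -13.0 percentage points (exact permutation test, two-sided, p = 0.1, as small as 3 against 3 can give). *Dsg1a* had the largest share, with means of 70.8% ± 1.92 in wild type and 83.1% ± 5.66 in transgenic libraries (SD, n = 3 each, exact p = 0.1). With *Dsg1b* and *Dsg1c* included in the sum, the *Dsg1a* share was 57.2% ± 1.83 in wild type against 62.6% ± 4.09 in transgenic libraries, with wild type replicate 1 and YAP2-5SA-∆C replicate 3 both at 59.2%, and the *Dsg4* share was 16.2% ± 1.62 in wild type against 5.35% ± 3.66 in transgenic libraries (SD, n = 3 each, exact p = 0.1).

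**Figure D4:**
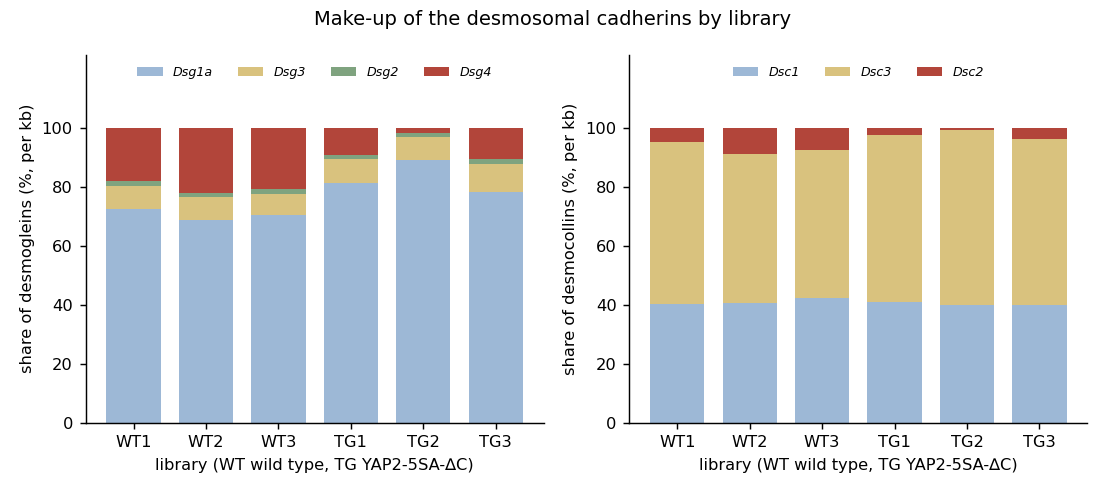
Share of each gene in the summed level per kb of the 4 desmogleins (left) and the 3 desmocollins (right), as a percentage, in wild type (WT) and YAP2-5SA-∆C (TG) libraries. The red band, *Dsg4* on the left and *Dsc2* on the right, is thinner in every YAP2-5SA-∆C library and thinnest in TG2 (1.54% and 0.699%).

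Among the other desmocollins, *Dsc1*, the form of the upper layers, differed least between the genotypes of all 10 genes. It had 661.3, 706.1 and 725.6 CPM in wild type and 699.6, 748.6 and 664 CPM in YAP2-5SA-∆C skin, with a log2 fold change of 0.01 and a 95% interval of -0.17 to 0.19 (quasi-likelihood FDR = 0.928 in edgeR). Changes larger than 14.4% up or 10.97% down lie outside that interval. *Dsc3*, the form of the basal layers, had 970.3, 938.5 and 927.8 CPM in wild type and 1032, 1184 and 1000 CPM in YAP2-5SA-∆C skin. Its libraries did not overlap, but the log2 fold change of 0.18 (95% interval -0.03 to 0.39) did not pass the quasi-likelihood test of edgeR (FDR = 0.239) and was 0.12 without YAP2-5SA-∆C replicate 2. As a share of the 3 desmocollins per kb, *Dsc2* was 4.74%, 8.63% and 7.26% in the wild type libraries and 2.17%, 0.699% and 3.52% in the YAP2-5SA-∆C libraries, with a mean difference of -4.75 percentage points (two-sided exact permutation test, p = 0.1). *Dsc3* had means of 52.0% and 57.4% (exact p = 0.1) and *Dsc1* of 41.1% and 40.4% (exact p = 0.5).

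The 3 plaque genes had overlapping libraries and small positive fold changes. *Dsp* had 3339, 3038 and 3465 CPM in wild type and 3439, 4450 and 3096 CPM in YAP2-5SA-∆C skin (log2 fold change 0.16, 95% interval -0.22 to 0.54, quasi-likelihood FDR = 0.568 in edgeR). *Pkp1*, the plakophilin of the upper epidermis, had 539, 503.3 and 563.5 CPM in wild type and 559.5, 732.9 and 545.3 CPM in YAP2-5SA-∆C skin (log2 fold change 0.19, 95% interval -0.10 to 0.49, FDR = 0.356). *Jup* had 448.7, 424.1 and 495.8 CPM in wild type and 511.7, 650.5 and 456.5 CPM in YAP2-5SA-∆C skin (log2 fold change 0.24, 95% interval -0.08 to 0.56, FDR = 0.300). YAP2-5SA-∆C replicate 2 was the highest of the 6 libraries for all 3 plaque genes, and for *Dsg1a*, *Dsc1* and *Dsc3* as well. Without it, the log2 fold changes were 0.01 for *Dsp*, 0.06 for *Pkp1* and 0.10 for *Jup*. Suprabasal keratinocyte genes were highest in the same library. The 7 measured genes of that list, *Krt1* and *Krt10* among them, summed to 5226 to 6410 CPM in wild type, to 7719 and 7168 CPM in YAP2-5SA-∆C replicates 1 and 3, and to 12550 CPM in replicate 2. The 8 basal keratinocyte genes, *Krt5* and *Krt14* among them, summed to 3634 to 4417 CPM in wild type and 5968 to 7611 CPM in YAP2-5SA-∆C skin, again highest in replicate 2. The part of keratinocyte content in the levels of the plaque genes was not tested.

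Set against *Dsp* in the same library, the other plaque genes kept nearly constant proportions. The log2 ratio of *Jup* to *Dsp* counts was -2.85 ± 0.05 in wild type against -2.76 ± 0.01 in transgenic libraries (SD, n = 3 each, two-sided exact permutation test, p = 0.1), and that of *Pkp1* to *Dsp* was -2.62 ± 0.02 and -2.58 ± 0.06 (exact p = 0.4). The ratio of *Dsg1a* to *Dsp* differed by 0.09 (exact p = 0.2), that of *Dsc3* by 0.03 (exact p = 0.8) and that of *Dsg3* by 0.02 (exact p = 1), all on the log2 scale, and the last 2, like the small difference of *Pkp1*, changed sign with *Jup* as the denominator. On that denominator the difference was 0.0029 for *Dsg1a* (exact p = 1), -0.22 for *Dsc1* and -0.36 for *Dsg2* (exact p = 0.1 each). Against *Dsp*, the mean log2 ratio differed by -2.06 for *Dsg4* and by -2.04 for *Dsc2* (exact p = 0.1 each). Without YAP2-5SA-∆C replicate 2, these ratios to *Dsp* differed by -1.09 and -1.28. The differences of the other 5 cadherins against *Dsp* lay between -0.28 (*Dsg2*) and 0.09.

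*Dsp* and *Jup*, plaque genes whose levels kept a near constant ratio across libraries, are shown with their promoters to give the sequence at their starts. They are the 2 of the 10 genes with an entry in the promoter table of RefSeq (GRCm38.p6), which holds 250 bases before and 50 bases after the start of each gene. The sequences run 5′ to 3′ on the strand of the gene, at chr13:38151044-38151343 on the plus strand for *Dsp* and chr11:100397741-100398040 on the minus strand for *Jup*. Capitals mark GGGCGG on either strand, the letters of a GC box.
Dsp: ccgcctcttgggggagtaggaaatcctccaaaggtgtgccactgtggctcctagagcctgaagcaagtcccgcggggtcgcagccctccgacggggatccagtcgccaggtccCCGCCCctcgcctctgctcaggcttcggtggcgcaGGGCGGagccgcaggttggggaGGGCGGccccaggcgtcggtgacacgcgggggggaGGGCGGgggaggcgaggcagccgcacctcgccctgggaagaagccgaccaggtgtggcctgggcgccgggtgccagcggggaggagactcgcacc
Jup: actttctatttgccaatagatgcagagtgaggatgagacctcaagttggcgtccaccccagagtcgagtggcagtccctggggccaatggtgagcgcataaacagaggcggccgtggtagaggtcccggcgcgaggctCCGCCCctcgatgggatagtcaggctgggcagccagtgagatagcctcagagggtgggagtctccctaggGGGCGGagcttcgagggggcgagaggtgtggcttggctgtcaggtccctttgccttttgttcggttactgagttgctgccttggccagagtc

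The *Dsp* promoter held 4 such matches and the *Jup* promoter 2, and 35.7% of all 32851 promoters in the table held at least 1. The GC content was 73.0% for *Dsp* and 60.7% for *Jup*, against a median of 52.7%. The letters GGAATG, the core bound by TEAD factors, through which YAP acts on DNA, were searched on both strands and are in neither window, while 14.7% of all promoters hold them. That says only that these letters are not in these 300 bases.

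The remaining desmosome genes were looked at as a list of 10, of which 1 was called by the quasi-likelihood test of edgeR, against 1.91% of all genes. *Dsg1c*, a minor mouse form of desmoglein 1, had 5.50, 4.97 and 5.14 CPM in wild type and 10.5, 21.9 and 12.4 CPM in YAP2-5SA-∆C skin, so all transgenic libraries were higher (log2 fold change 1.52, standard error 0.27, FDR = 0.0468). Its counts were low, at 100, 95 and 54 in wild type replicates 1, 2 and 3. The direction held in all 15 alternatives, but the call was lost with voom (FDR = 0.064), with a replicate block (FDR = 0.169) and, one at a time, without 5 of the 6 libraries (FDR 0.0536 to 0.190), the exception being YAP2-5SA-∆C replicate 2 (FDR = 0.0122). *Dsg1b* had 223.3, 215 and 231.2 CPM in wild type and 297.1, 329.8 and 273.5 CPM in YAP2-5SA-∆C skin, also without overlap, and its log2 fold change of 0.43 (standard error 0.08) came just short of the threshold (FDR = 0.0505). *Pkp2*, the plakophilin of simple epithelia and heart, had 9.99 to 12.4 CPM in wild type and 7.30 to 9.12 CPM in YAP2-5SA-∆C skin (log2 fold change -0.45, quasi-likelihood FDR = 0.0855 in edgeR). The other 7 had FDRs of 0.421 to 0.871. They were *Perp*, a membrane protein of desmosomes, with a log2 fold change of 0.13, the plakins *Evpl* (0.15) and *Ppl* (0.12), which join the cornified envelope, *Cdsn* (0.15), the corneodesmosome protein, the plakophilins *Pkp3* (-0.03) and *Pkp4* (-0.03), and *Tchp* (-0.11), a keratin-binding protein. The median over the 10 was 0.13.

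The 3 desmoglein 1 genes share part of their sequence. Of all stretches of 75 bases, the read length, in the *Dsg1a* transcript, 29.2% also occur in another desmosome gene, and the share is 39.7% for *Dsg1b* with 802 of 4014 stretches for *Dsg1c*. No stretch of that length is shared by any other gene of the 10 or of the other list. The authors counted uniquely mapped reads only, so reads within shared stretches can be missing from the counts, to a different extent in each of the 3 genes, and the levels of the 3 relative to each other are uncertain. Their sum was 1274, 1136 and 1202 CPM in wild type and 1412, 1715 and 1281 CPM in YAP2-5SA-∆C skin, with a mean difference of 265.3 CPM (two-sided exact permutation test, p = 0.1) and without overlap between the genotypes.

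For comparison, adherens junctions, the actin-linked cell contacts built on classical cadherins and catenins, were examined as a list of 14 genes. None of the 14 passed the quasi-likelihood test of edgeR, but 6 had an unadjusted p below 0.05, all lower (13% of all genes), and 8 were lower without overlap (18.2% of all genes), with a median log2 fold change of -0.17. DESeq2 called 3 of them lower (*Ctnnb1*, *Nectin4* and *Afdn*), against 4.18% of all genes. β-catenin (*Ctnnb1*), which joins cadherins to actin and also carries Wnt signals, had 781.8, 774.2 and 751.3 CPM in wild type and 636.4, 514.3 and 606.1 CPM in YAP2-5SA-∆C skin (log2 fold change -0.39, quasi-likelihood FDR = 0.0635 in edgeR). *Afdn*, the nectin-binding protein afadin, had a log2 fold change of -0.38 (FDR = 0.0530). The highest 2 were E-cadherin (*Cdh1*), with 206.5 to 264.5 CPM in wild type and 247.3 to 326.8 CPM in YAP2-5SA-∆C skin (0.29, FDR = 0.202), and N-cadherin (*Cdh2*), at 0.33 (FDR = 0.275). The difference between the desmosome and adherens junction genes was not tested.

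The cadherin genes *Dsg4* and *Dsc2* are not neighbours. All 7 cadherins of the 10 genes, with *Dsg1b* and *Dsg1c*, lie in 1 row of 9 consecutive protein-coding genes on chromosome 18 of GRCm38, from 19960930 to 20604521 by GENCODE M21. The 3 desmocollins are on the minus strand, in the order *Dsc3*, *Dsc2*, *Dsc1*, and the desmogleins follow on the plus strand in the order *Dsg1c*, *Dsg1a*, *Dsg1b*, *Dsg4*, *Dsg3*, *Dsg2*. *Dsc2* (20030633 to 20059554) thus lies between *Dsc3*, with a log2 fold change of 0.18, and *Dsc1*, with 0.01. *Dsg4* (20436175 to 20471821) lies between *Dsg1b*, with 0.43, and *Dsg3*, with 0.16. Of the plaque genes, *Dsp* spans 38151294 to 38198577 of chromosome 13, *Pkp1* 135871395 to 135919207 of chromosome 1 and *Jup* 100368958 to 100397763 of chromosome 11. A gene model on the other strand, *Gm10129*, covers 499 exon bases of *Dsp* (5.17%).

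**Figure D5:**
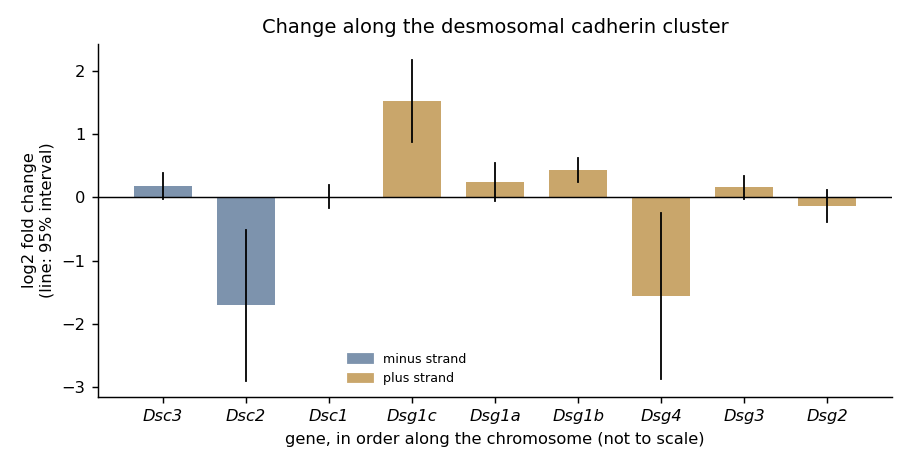
Log2 fold change of YAP2-5SA-∆C over wild type skin, with its 95% interval, for the 9 desmosomal cadherin genes in their order along the chromosome, coloured by strand. *Dsc2* (-1.70) and *Dsg4* (-1.56) are the low bars and each stands between genes of the same strand with log2 fold changes of 0.01 to 0.43.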

How the data were processed

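RNA-Seq counts of 6 mouse skin libraries, 3 wild type and 3 YAP2-5SA-∆C, were used as the authors deposited them, as a table of raw read counts, 1 row an Ensembl gene. The authors aligned 75-nucleotide paired-end reads to GRCm38 with TopHat2 (2.0.12 in the submitters' processing notes, and another version in the methods of the paper) and Bowtie2 (2.1.0) and counted uniquely mapped reads with HTSeq-count. The annotation release and strand setting are not given in the sources used here. The sample labels speak of mRNA libraries and also name a kit for total RNA. Total counts of 11225705 to 19505036 limit the precision of low genes most.

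Genes that reached 1 CPM in 3 or more libraries were tested after TMM scaling in R 4.3.3 with edgeR 4.0.16 (quasi-likelihood test, all genes in 1 fit, genotype as the only term, Benjamini-Hochberg adjustment). The likelihood-ratio test of edgeR, which the study's methods use, voom (limma 3.58.1) and DESeq2 1.42.0 were alternatives, with other scalings and filters, a replicate block and each library left out. The tests were tested on simulated data. CPM values use TMM library sizes, and lengths are the union of GENCODE M21 exons. Shares and ratios were compared by two-sided exact permutation tests.

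The 10 genes and all gene lists were chosen with earlier results of these data known. The genes named are the 10, the 10 other desmosome genes, the 2 highest and 2 lowest log2 fold changes of the adherens junction list, *Yap1*, some genes of each marker list whose sum is printed, and the 5 nearest profiles of the highest and the lowest of the 10. Each sum is over all measured genes of its list, most of which are not named. *Nectin4* was named after its values were seen, as were the antisense gene models.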

Additional observations from a re-analysis of the deposited data

How the results depend on the processing

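The quasi-likelihood test of edgeR called 0 of the 10 desmosomal genes, and the likelihood-ratio test called 2 of them, while the count without 1 library each ran from 0 to 1, the 1 being *Dsg4* without YAP2-5SA-∆C replicate 2. Of the 10 other desmosome genes, 1 was called, against 2 with RLE or upper-quartile scaling, without the low-count filter, with at least 10 counts in every library, without the mitochondrial genes and the unnamed gene, and with the likelihood-ratio test or DESeq2, against 0 with voom, and 0 to 2 without 1 library each. It was 0 without any 1 of the wild type libraries or YAP2-5SA-∆C replicates 1 and 3, where *Dsg1c* lost its call, and 2 (*Dsg1b* and *Dsg1c*) without YAP2-5SA-∆C replicate 2. Calls over all genes moved as well, from 288 in the main fit to 357 with RLE and 416 with upper-quartile scaling. They were 497 without the low-count filter, 306 with at least 10 counts in every library and 358 without the mitochondrial genes and the unnamed gene. The likelihood-ratio test called 1568 of all genes, DESeq2 1590 and voom 249. Without wild type replicate 1 the total was 142, and without YAP2-5SA-∆C replicate 1 it was 86. The 14 adherens junction genes had 0 calls, 3 with DESeq2, and 0 to 1 without 1 library each (1 without YAP2-5SA-∆C replicate 2). *Dsg4* kept its direction at -1.91 to -1.08 and *Dsc2* at -2.23 to -1.29 on the log2 scale over all 15 alternatives. The log2 fold change of *Dsc1* ran from -0.01867 to 0.05579 without 1 library each and was negative without the first wild type library or the second YAP2-5SA-∆C library. With *Jup* in place of *Dsp* as denominator, the differences in log2 ratio between the genotypes turned to -0.06467 for *Dsg3*, -0.05161 for *Dsc3* and -0.04628 for *Pkp1*. Without 1 library each, the difference in the log2 ratio to *Dsp* ran from -0.1252 to 0.1536 for *Dsg3* and from -0.03049 to 0.1095 for *Dsc3*, negative without replicate 3 of either genotype. The causes were not tested.

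The replicate numbers were not shown to pair the mice, since deviations from the genotype means correlated across genes at -0.343, -0.244 and -0.0624 between libraries of the same number, and the labels give no shared number for a litter. With a replicate block, 0 of the 10 desmosomal genes, 0 of the other desmosome genes and 0 of all genes were called by the quasi-likelihood test of edgeR (2949 genes at an unadjusted p below 0.05). Over all genes, 0 were called when replicate 2 or 3 of wild type, or replicate 3 of YAP2-5SA-∆C, was left out (2725 to 3692 at an unadjusted p below 0.05), and 816 when YAP2-5SA-∆C replicate 2 was left out. With 3 mice a genotype, the exact tests of shares and ratios cannot pass 0.05.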

Other observations

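The summed levels of the other marker lists are given here by genotype, without a test of the sums. The 7 sebaceous gland genes summed to 321.2 to 584.2 CPM in wild type and 816.9 to 936.5 CPM in YAP2-5SA-∆C skin, and *Awat2*, a lipid enzyme of the gland, is among them. The 6 macrophage and dendritic cell genes, with *Adgre1*, summed to 240.8 to 301.4 CPM in wild type and 370 to 400.8 CPM in YAP2-5SA-∆C skin. Of the 8 stress keratinocyte genes, with *Krt6b* and *Krt16*, 4 were called higher by the quasi-likelihood test of edgeR, against 1.91% of all genes in either direction. The 8 summed to 1222 to 1625 CPM in wild type and 1346 to 2540 CPM in YAP2-5SA-∆C skin. Most of that sum in wild type was *Krt17*, which had 961.7 to 1213 CPM in wild type and 474.9 to 870.2 CPM in YAP2-5SA-∆C skin (log2 fold change -0.63), while the other 7 genes had positive log2 fold changes. In YAP2-5SA-∆C replicate 2, where *Dsg4* and *Dsc2* were lowest, this stress sum was the lowest of the 3 transgenic libraries (1346 CPM). The 6 skeletal muscle genes, with *Ckm* and *Acta1*, overlapped between the genotypes (1330 to 6486 and 1275 to 3293 CPM). The 6 fibroblast genes, with *Pdgfra*, summed to 9449 to 12800 and 12260 to 15940 CPM, the 5 adipocyte genes, with *Adipoq*, to 622.2 to 869.2 and 544.3 to 901.1 CPM, and the 5 endothelial genes, with *Pecam1*, to 91.6 to 101.7 and 105.8 to 130.7 CPM. The 5 T cell genes, with *Cd3e*, summed to 7.75 to 9.24 and 9.07 to 13.3 CPM. The 5 companion layer and outer root sheath genes summed to 899 to 991.5 and 700.2 to 960.2 CPM, and *Krt75*, the keratin of the companion layer, had a log2 fold change of -1.35, while 3 of the 5 were positive (*Krt79* at 0.72) and the median was 0.02. *Krt17* and *Krt79* were named after their values were seen.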
